A study of Mus musculus with 24 samples.

Results

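These 10 genes are described here: the NRF2 target genes Nqo1, Hmox1, Slc7a11, Gclm, Gclc, Txnrd1, Srxn1 and Osgin1, and the metallothionein genes Mt1 and Mt2. They were chosen by symbol, as a named list of genes known to answer oxidative and metal stress. Earlier results of these data were known when the list was chosen. All 10 were found among the 54838 identifiers of the count table, and all 10 were among the 13116 genes with enough counts to be tested. The study asked how SIM-A9 cells, a spontaneously immortalised line of mouse microglia (the resident macrophages of the brain), respond to probes used on neurons. Poly-A RNA was sequenced in 24 libraries, 3 in each of 8 groups. All cells, controls included, stood in serum-free medium (270 uL) for 2 h. Then 30 uL of a 10-fold concentrated sample went into each treated well, and RNA was taken 2 h later.

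The control cells are labelled untreated, and no vehicle is named for them. LPS, bacterial lipopolysaccharide, was the positive control for inflammation. (GT)6 SWCNT are single-walled carbon nanotubes named for a short DNA strand used to wrap nanotubes, and COOH SWCNT are carboxylated nanotubes. Fura-2 is a fluorescent calcium indicator. DiBASC2 and Di-2-ANEPEQ are voltage-sensitive dyes, and AAV is adeno-associated virus. Doses are not given in the labels, so the treatments could not be matched by dose. Every group came from the same cell line at the same time point. Separate cultures are not described for the 3 libraries of a group, so p-values measure only the spread between these libraries, which may be technical.

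NRF2 (gene Nfe2l2) is a transcription factor that KEAP1 marks for degradation until oxidants or electrophiles modify KEAP1. NRF2 then pairs with a small MAF protein and binds antioxidant response elements of genes for glutathione synthesis, thioredoxin reduction, quinone reduction and haem breakdown. Metallothioneins are small cysteine-rich proteins that bind zinc, copper and cadmium, and their genes are switched on by the metal-sensing factor MTF1 at metal response elements.

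Total counts per library ran from 17364272 to 29259221. The 9 markers of microglia and macrophages were all above 1 CPM (counts scaled to library size) in every library, with a summed level from 2625 to 2968 CPM. Summed neuronal markers reached at most 1.03 CPM, astrocyte markers 0.780, endothelial markers 0.603 and fibroblast markers 0.341. Oligodendrocyte markers summed to between 3.41 and 5.80 CPM. The 3 libraries of each group carry consecutive numbers at the end of their labels, and what these numbers stand for is not said. Their order and treatment cannot be told apart.

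The promoters of Slc7a11, Srxn1, Mt1 and Mt2 are printed because Slc7a11 and Srxn1 were the members called higher with a nanotube, and because both metallothionein promoters held repeated metal response cores. They are RefSeq sequences on GRCm38.p6 from 250 bases before to 50 bases after a transcript start, 5′ to 3′ on the gene's strand. RefSeq promoters were found for 8 of the 10 genes, without Hmox1 and Gclc, and Txnrd1 had 3 of the 10 promoters. The 3 motifs were searched on both strands: the antioxidant response element core TGACNNNGC, the metal response element core TGCACNC or TGCGCNC, and the amino acid response element core TGATGCAA. Capitals mark every match.
Slc7a11, chr3:50443564-50443863, minus strand: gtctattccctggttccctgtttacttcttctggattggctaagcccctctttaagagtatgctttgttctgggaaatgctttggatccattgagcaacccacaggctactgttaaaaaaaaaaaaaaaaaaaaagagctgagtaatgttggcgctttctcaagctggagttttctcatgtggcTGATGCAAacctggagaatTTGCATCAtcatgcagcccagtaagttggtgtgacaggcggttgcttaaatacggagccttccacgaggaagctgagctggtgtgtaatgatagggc
Srxn1, chr2:152105274-152105573, plus strand: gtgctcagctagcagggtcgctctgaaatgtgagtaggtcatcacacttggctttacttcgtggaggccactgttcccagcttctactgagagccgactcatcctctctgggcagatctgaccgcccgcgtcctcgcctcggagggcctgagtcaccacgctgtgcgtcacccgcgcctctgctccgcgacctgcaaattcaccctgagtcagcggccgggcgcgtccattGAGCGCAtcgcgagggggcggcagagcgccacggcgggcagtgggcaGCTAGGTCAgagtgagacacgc
Mt1, chr8:94178839-94179138, plus strand: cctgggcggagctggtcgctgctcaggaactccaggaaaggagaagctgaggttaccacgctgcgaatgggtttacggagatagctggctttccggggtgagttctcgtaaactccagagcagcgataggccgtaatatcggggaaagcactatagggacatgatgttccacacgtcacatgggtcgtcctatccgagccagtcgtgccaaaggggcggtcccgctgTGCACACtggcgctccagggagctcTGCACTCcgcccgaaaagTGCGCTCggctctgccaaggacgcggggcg
Mt2, chr8:94172368-94172667, plus strand: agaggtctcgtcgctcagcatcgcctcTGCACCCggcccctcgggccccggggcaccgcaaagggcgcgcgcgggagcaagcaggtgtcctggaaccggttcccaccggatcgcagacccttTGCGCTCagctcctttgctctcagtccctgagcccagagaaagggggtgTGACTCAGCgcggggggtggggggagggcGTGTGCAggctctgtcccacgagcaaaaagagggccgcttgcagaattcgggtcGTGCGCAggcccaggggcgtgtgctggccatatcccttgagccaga

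The antioxidant core was in 4 of the 10 member promoters (Gclm, Srxn1, Mt2 and the promoter of Txnrd1 that starts its window at chr10:82858956-82859255), against 12.4% of all 32851 promoters in the table. The metal core was in 4 of 10 (Mt1 with 3 matches, Mt2 with 4, Gclm with 3 and Srxn1 with 1), against 25.7% of all promoters. In Gclm 1 antioxidant and 1 metal match shared bases. The amino acid core was in 1 of 10, against 0.895% of all promoters. Slc7a11 held it on both strands, in inverted orientation, starting at 66 and 47 bases before the transcript start (positions -66 and -47). These matches describe the letters of these windows only.

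Slc7a11 was the member with the widest range. It encodes xCT, the cystine-glutamate exchanger that brings in cystine for glutathione (ENSMUSG00000027737.10, chr3:49892526-50443614, minus strand). Levels below are CPM after TMM scaling, replicate by replicate, and means are given with SD for n = 3. Slc7a11 stood at 30.2, 27.4 and 26.4 CPM in control and at 146, 119 and 136 CPM in LPS. (GT)6 SWCNT gave 40.98, 40.6 and 37.0 CPM and COOH SWCNT gave 30.3, 29.9 and 29.9 CPM. All LPS libraries lay far above all others, all (GT)6 libraries lay between LPS and the rest, and the remaining groups overlapped control. The fold change in LPS was 4.78 (95% interval 4.35 to 5.26), a log2 fold change of 2.26 ± 0.07 (SE) with an adjusted p of 3.77e-26. Adjusted p-values are from edgeR's quasi-likelihood test with Benjamini-Hochberg adjustment over all 13116 genes, and a gene was called under 0.05. With (GT)6 SWCNT the fold change was 1.42 (1.28 to 1.57), log2 0.50 ± 0.07, adjusted p 1.03e-06. COOH SWCNT gave log2 0.10 (interval -0.05 to 0.25, adjusted p 0.369).

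The dye and AAV groups of Slc7a11 had means of 26.2 ± 0.477 CPM in Fura-2, 25.5 ± 0.938 in DiBASC2, 29.3 ± 3.35 in Di-2-ANEPEQ and 30.6 ± 0.564 in AAV, against 28 ± 1.99 in control. None was called. Their log2 fold changes lay between -0.13 and 0.13, and their intervals together ran from 0.82 of control to 1.21-fold. In bulk RNA a change in the share of cells and a change in RNA per cell cannot be told apart, here and in every result that follows.

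Gclc fell in LPS and in both nanotube groups. It encodes the catalytic subunit of glutamate-cysteine ligase, the rate-limiting enzyme of glutathione synthesis (ENSMUSG00000032350.9, chr9:77754535-77794485, plus strand). Control libraries held 117, 120 and 115 CPM and LPS libraries 90.8, 87.1 and 92.1 CPM. (GT)6 SWCNT held 87.3, 84.4 and 93.2 CPM and COOH SWCNT 102, 100 and 93.7 CPM. Every library of these 3 groups lay below every control library, with COOH SWCNT nearest to control. The log2 fold changes were -0.41 ± 0.05 with (GT)6 SWCNT (adjusted p 3.69e-09), -0.38 ± 0.05 with LPS (1.07e-08) and -0.25 ± 0.04 with COOH SWCNT (5.82e-05). In fold terms Gclc stood at 0.75, 0.77 and 0.84 of control. The means of the dyes and AAV ran from 112 to 118 CPM, overlapped control and were not called.

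Gclm encodes the modifier subunit of the same enzyme (ENSMUSG00000028124.15, chr3:122245557-122270732, plus strand). Its group means ran only from 67.5 ± 1.63 CPM in LPS to 74.1 ± 3.46 CPM in AAV, and it was not called in any of the 11 contrasts as fitted. Control libraries held 78.8, 70.9 and 70.9 CPM and LPS libraries 68.2, 68.6 and 65.6 CPM. LPS libraries all lay just below the controls, with log2 -0.12 (interval -0.23 to -0.01, adjusted p 0.085). With upper-quartile scaling Gclm was called lower in LPS (-0.16, adjusted p 0.0165). The intervals against control were -0.18 to 0.03 in (GT)6 SWCNT and -0.17 to 0.04 in COOH SWCNT. The exons of Gclm overlap the antisense transcript Gm17494 and the pseudogene Gm6061, and 3.92% of its 50-base stretches recur in other genes, so its counts are uncertain. Whether the subunits differed in their change was not tested.

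**Figure D1:**
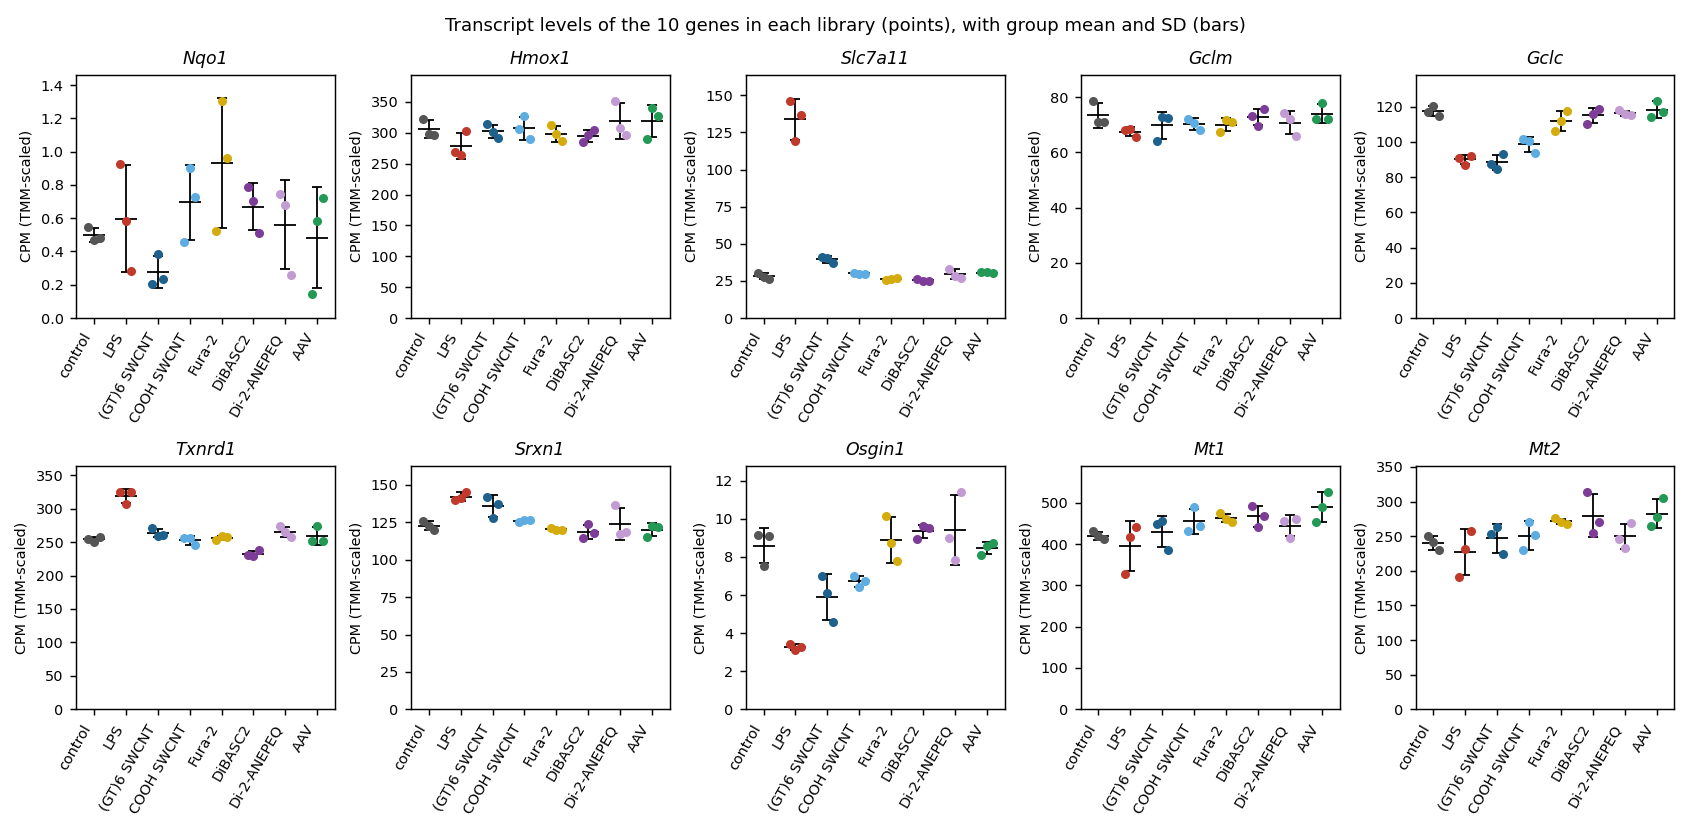
Transcript level (TMM-scaled CPM, vertical axis from 0) of each of the 10 genes in the 8 groups. Points are libraries, the long bar is the group mean and the whiskers are SD (n = 3). Slc7a11 in LPS (134 ± 13.9 CPM) stands apart from all other groups, Gclc is lower in LPS and both nanotube groups, and Osgin1 is lowest in LPS (3.27 ± 0.149 CPM).

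Txnrd1 was called higher than control in LPS and in no other treatment. It encodes cytosolic thioredoxin reductase, which returns thioredoxin to its reduced form (ENSMUSG00000020250.10, chr10:82833951-82897712, plus strand). Control libraries held 255, 250 and 257 CPM and LPS libraries 325, 308 and 324 CPM. DiBASC2 libraries held 231, 229 and 238 CPM. LPS libraries were all above and DiBASC2 libraries all below every other library. The log2 fold change in LPS was 0.33 ± 0.04 (fold 1.26, adjusted p 3.81e-09). Neither nanotube was called: log2 0.05 (interval -0.02 to 0.13) in (GT)6 SWCNT and -0.01 (-0.08 to 0.07) in COOH SWCNT.

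In DiBASC2 Txnrd1 was lower by log2 -0.13 ± 0.04 (adjusted p 0.0356). That call ended when any of the 6 libraries was left out, with adjusted p 0.146, 0.0628 and 0.131 without control replicate 1, 2 and 3, and 0.0764, 0.103 and 0.0595 without DiBASC2 replicate 1, 2 and 3. It also ended with upper-quartile scaling (0.112), without the low-count filter (0.0585) and with only the 6 libraries fitted (0.0690).

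Srxn1, which encodes sulfiredoxin, the enzyme that repairs over-oxidised peroxiredoxins, had small gains (ENSMUSG00000032802.8, chr2:152105516-152111376, plus strand). Control libraries held 126, 123 and 120 CPM, LPS 140, 141 and 145 CPM and (GT)6 SWCNT 142, 128 and 137 CPM. LPS and (GT)6 libraries all lay above control and overlapped each other. Log2 fold changes were 0.21 ± 0.05 in LPS (adjusted p 0.000515) and 0.15 ± 0.05 in (GT)6 SWCNT (0.0225). The (GT)6 call ended without control replicate 3 (adjusted p 0.0617) or without (GT)6 replicate 1 (0.129). COOH SWCNT gave log2 0.04 (interval -0.06 to 0.13). Of the dyes, Di-2-ANEPEQ had 1 library at 136 CPM and the others at 117 and 119 CPM, and its mean of 124 ± 10.8 CPM was not called.

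Hmox1, haem oxygenase 1, which breaks down haem to biliverdin, iron and carbon monoxide, was abundant and hardly moved (ENSMUSG00000005413.8, chr8:75093621-75100589, plus strand). Control libraries held 322, 299 and 297 CPM, (GT)6 SWCNT 314, 301 and 292 CPM and COOH SWCNT 307, 327 and 290 CPM. LPS held 269, 264 and 303 CPM, the lowest mean of the groups, and the highest means were 319.1 CPM in AAV and in Di-2-ANEPEQ. Neighbouring groups in the order of means all overlapped. No treatment was called against control. The intervals of the log2 fold change were -0.13 to 0.10 in (GT)6 SWCNT and -0.11 to 0.12 in COOH SWCNT, which in fold terms is 0.91 to 1.07 and 0.93 to 1.09 of control. In LPS the log2 value was -0.13 (interval -0.25 to -0.02, adjusted p 0.0799), and it was called without LPS replicate 3 (-0.19, adjusted p 0.0194), with upper-quartile scaling (-0.18, 0.0156) and without the low-count filter (-0.14, 0.00854).

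Osgin1, an oxidative-stress-induced growth inhibitor, fell where Slc7a11 rose (ENSMUSG00000074063.10, chr8:119434124-119446256, plus strand). Control libraries held 9.18, 7.53 and 9.08 CPM and LPS 3.42, 3.13 and 3.27 CPM. (GT)6 SWCNT held 6.98, 6.10 and 4.57 CPM and COOH SWCNT 7.02, 6.41 and 6.73 CPM. The LPS libraries lay below all others, and all libraries of both nanotubes lay between LPS and control. The log2 fold changes were -1.38 ± 0.15 in LPS (fold 0.38, adjusted p 1.73e-09) and -0.51 ± 0.13 in (GT)6 SWCNT (fold 0.70, adjusted p 0.00444).

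Without (GT)6 replicate 3 the (GT)6 value of Osgin1 was -0.37 with an adjusted p of 0.0516. COOH SWCNT gave -0.34 (interval -0.60 to -0.08, adjusted p 0.0579), which was called without control replicate 2 (-0.44, adjusted p 0.0299). It was also called without the low-count filter (-0.34, 0.0429) and with only the 2 groups fitted (-0.34, 0.0355). The dyes and AAV had means from 8.46 to 9.40 CPM, none called.

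Nqo1, the quinone reductase often used as a readout of NRF2, was barely detected (ENSMUSG00000003849.8, chr8:107388225-107403206, minus strand). Control libraries held 0.549, 0.468 and 0.481 CPM. Group means ran from 0.276 ± 0.0976 CPM in (GT)6 SWCNT to 0.931 ± 0.392 CPM in Fura-2, where the libraries were at 0.524, 1.31 and 0.962 CPM. Its biological coefficient of variation was 24.9%, the largest of the 10 genes, and it was not called in any contrast. The interval in (GT)6 SWCNT, -1.97 to 0.32 on the log2 scale, and that in Fura-2, -0.03 to 1.78, are wide, so even a sizeable change was not detectable at this depth.

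The metallothioneins had the highest levels per kilobase of the 10 genes, and neither was called in any treatment against control. Per kilobase of exon, Mt2 averaged 435 CPM and Mt1 358 CPM over the 24 libraries, ahead of Hmox1 at 173, Srxn1 at 44.7 and Txnrd1 at 37.1. Gclc averaged 28.4, Gclm 11.3, Slc7a11 3.08, Osgin1 2.83 and Nqo1 0.379 CPM per kilobase. The length joins the exons of all annotated transcripts, 1246 bases for Mt1, which is its whole gene span, and 588 for Mt2. Before division by length Mt1 averaged 446 CPM and Mt2 256 CPM, so the order of these 2 genes per kilobase rests on that length. Mt1 (ENSMUSG00000031765.8, chr8:94179082-94180327) and Mt2 (ENSMUSG00000031762.7, chr8:94172664-94173568) are neighbours on the plus strand of chromosome 8. The exons of Mt2 overlap the antisense gene Gm45774.

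Mt1 stood at 431, 419 and 412 CPM in control, 448, 457 and 387 CPM in (GT)6 SWCNT and 433, 489 and 444 CPM in COOH SWCNT. LPS libraries were at 326, 418 and 443 CPM. Both LPS and (GT)6 SWCNT straddled control, and COOH SWCNT lay just above it. The log2 values were 0.03 (interval -0.11 to 0.18) in (GT)6 SWCNT, 0.11 (-0.03 to 0.26) in COOH SWCNT and -0.09 (-0.23 to 0.05) in LPS. Fura-2 libraries held 475, 461 and 455 CPM and DiBASC2 492, 441 and 468 CPM, all above the highest control. Di-2-ANEPEQ held 455, 415 and 462 CPM, which overlapped control, and AAV held 454, 489 and 526 CPM, which did not.

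Mt2 stood at 250.5, 241 and 229.5 CPM in control, 254, 263 and 224 CPM in (GT)6 SWCNT and 229.5, 271 and 252 CPM in COOH SWCNT. LPS held 192, 231 and 258 CPM. All of these overlapped control. The values for Fura-2 were 276, 271 and 268 CPM, for DiBASC2 314, 255 and 270.3 CPM, for Di-2-ANEPEQ 246, 233 and 269 CPM and for AAV 264, 278 and 305 CPM. Again Fura-2, DiBASC2 and AAV libraries all lay above control.

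The 8 groups ranked in the same order for both genes: AAV, DiBASC2, Fura-2, COOH SWCNT, Di-2-ANEPEQ, (GT)6 SWCNT, control and LPS. Neighbours in that order overlapped throughout. The largest values against control were those of AAV, log2 0.22 (interval 0.08 to 0.36, adjusted p 0.0557) for Mt1 and 0.23 (0.08 to 0.38, 0.0592) for Mt2. Both were called without AAV replicate 1 (0.27, adjusted p 0.0313, and 0.28, 0.0414). DiBASC2 gave 0.15 (adjusted p 0.227) for Mt1 and 0.22 (0.0823) for Mt2, the latter called without DiBASC2 replicate 2 (0.28, 0.0416). Fura-2 gave 0.14 (0.467) and 0.18 (0.379).

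The metallothionein calls depended on the settings. With a transcript-length trend removed, both genes were called higher in COOH SWCNT, Mt1 at log2 0.22 (adjusted p 0.00504) and Mt2 at 0.22 (0.0134), in place of 0.11 and 0.06. The same setting called both in AAV (0.28 and 0.34) and Mt2 in DiBASC2 (0.24, adjusted p 0.0140). Without the low-count filter Mt1 was called in COOH SWCNT (0.12, adjusted p 0.0456), and so it was with only the 6 libraries fitted (0.0407). Those settings also called both genes in AAV and in DiBASC2 and Mt2 in Fura-2. No setting called either gene in (GT)6 SWCNT against control.

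**Figure D2:**
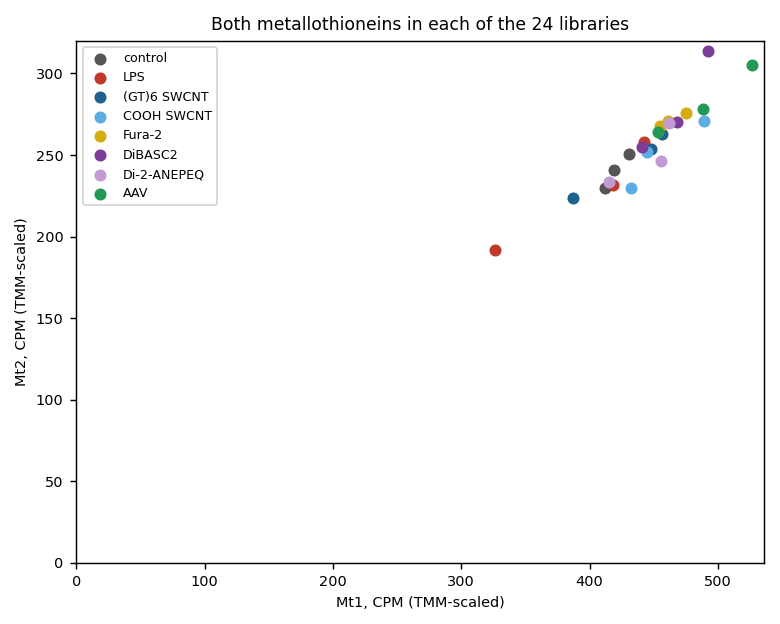
Mt1 (horizontal) against Mt2 (vertical), both in TMM-scaled CPM on axes from 0, 1 point per library coloured by group. LPS replicate 1 is lowest for both genes (326 and 192 CPM), and the highest values are AAV replicate 3 for Mt1 (526 CPM) and DiBASC2 replicate 1 for Mt2 (314 CPM).

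Counted by treatment, 5 of the 10 members were called in LPS, 3 higher (Slc7a11, Txnrd1, Srxn1) and 2 lower (Gclc, Osgin1), where 28.3% of all tested genes were called (13.8% higher, 14.5% lower). (GT)6 SWCNT had 4 called, Slc7a11 and Srxn1 higher and Gclc and Osgin1 lower, against 20.4% of all genes (9.90% higher, 10.5% lower). These 4 had the same signs in LPS, a comparison that uses the same control libraries. COOH SWCNT had 1 called, Gclc, lower, against 20.0% of all genes (9.39% higher, 10.6% lower). Without the low-count filter, with only the 6 libraries fitted or with a transcript-length trend removed there were 3. DiBASC2 had 1, Txnrd1, lower, against 5.47% (1.82% higher, 3.64% lower). Fura-2, Di-2-ANEPEQ and AAV had 0 by edgeR, against 0.252%, 3.08% and 5.00% of all genes. At an unadjusted p under 0.05 there were 1, 0 and 2 members in these 3 treatments. The share of all genes at that unadjusted threshold was not computed, so these counts have no background to stand beside. The median log2 fold change of the 10 members was -0.08 with LPS, 0.01 with (GT)6 SWCNT and 0.02 with COOH SWCNT, beside all-gene medians of -0.01, -0.02 and -0.002.

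**Figure D3:**
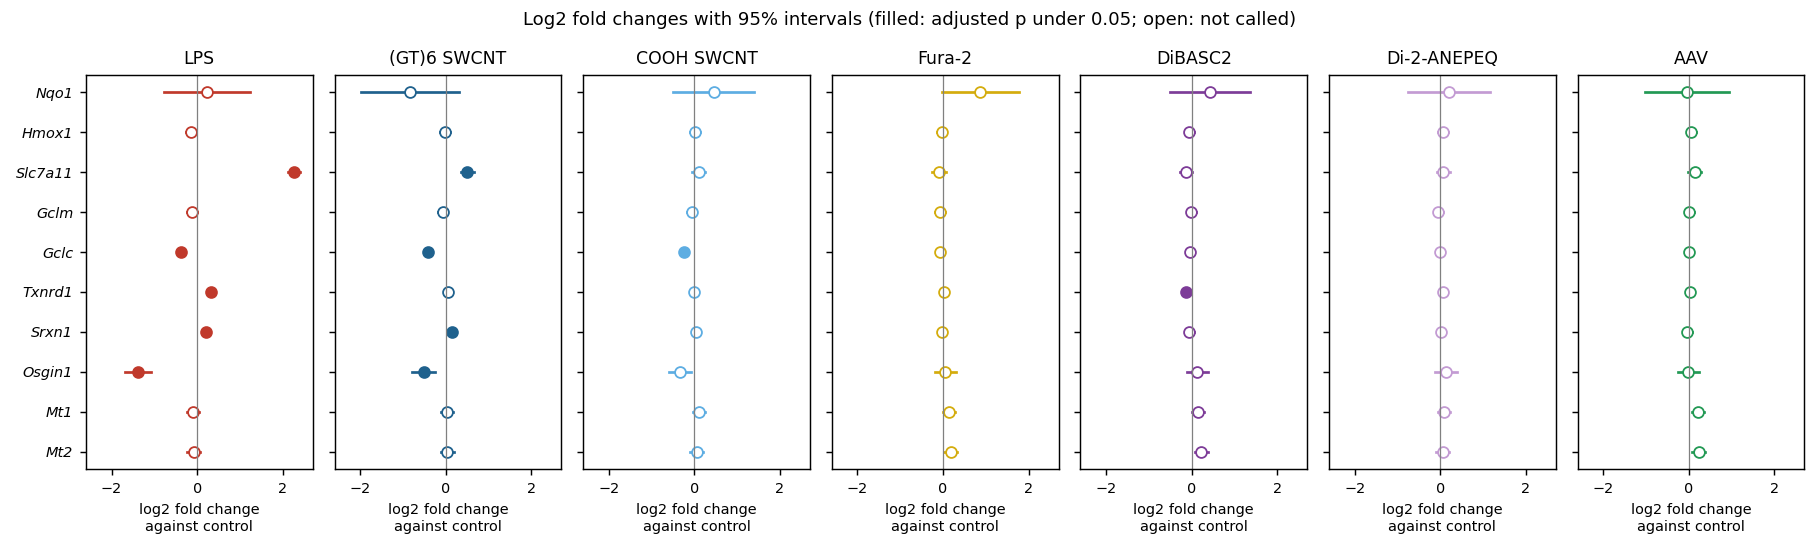
Log2 fold change against control (horizontal axis) of the 10 genes in the 7 treatments, with 95% intervals. Filled points were called at an adjusted p under 0.05. Calls are seen in LPS (5), (GT)6 SWCNT (4), COOH SWCNT (1) and DiBASC2 (1), and Nqo1 has the widest intervals.

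The nanotubes were compared directly. Slc7a11 was 1.32-fold higher in (GT)6 SWCNT than in COOH SWCNT (log2 0.40 ± 0.07, adjusted p 5.76e-05) and Gclc lower by log2 -0.16 ± 0.05 (0.00877), so 2 of 10 members were called, against 21.4% of all genes. The Gclc call ended without COOH replicate 1 (adjusted p 0.0731), COOH replicate 2 (0.0600) or (GT)6 replicate 2 (0.0813). Srxn1 gave log2 0.11 (interval 0.01 to 0.20, adjusted p 0.0943) and was called without (GT)6 replicate 2 (0.0360). Osgin1 gave -0.17 (interval -0.45 to 0.10), Hmox1 -0.03 (-0.14 to 0.09) and Mt1 -0.08 (-0.22 to 0.06). The difference furthest from 0 was that of the barely detected Nqo1, log2 -1.28 (interval -2.33 to -0.22, adjusted p 0.0758), with all (GT)6 libraries below all COOH libraries. It was called without the low-count filter (0.0483) and with only the 6 libraries fitted (0.0398). With a transcript-length trend removed Txnrd1 (0.11, adjusted p 0.0225) and Mt1 (-0.17, 0.0283) were called too. Both nanotube groups carry different surfaces, and their doses are not given.

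Set against LPS, (GT)6 SWCNT had Slc7a11 at 0.30 of the LPS level (log2 -1.75 ± 0.06, adjusted p 4.87e-23) and Txnrd1 lower (-0.27 ± 0.04, 2.51e-07), while Osgin1 was higher (0.87 ± 0.16, 5.21e-05). These 3 calls stand beside 21.6% of all genes. Gclc did not differ detectably between (GT)6 SWCNT and LPS (log2 -0.03, interval -0.12 to 0.06). Without LPS replicate 3, the library with the highest Hmox1, Mt1 and Mt2 of that group, those 3 genes were also called higher (adjusted p 0.0277, 0.0338 and 0.0378), which made 6.

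COOH SWCNT against LPS had 7 members called, 4 higher and 3 lower, against 37.8% of all genes. Slc7a11 was at 0.22 of the LPS level, Txnrd1 and Srxn1 were lower (log2 -0.34 and -0.17) and Osgin1 was 2.06-fold higher. Gclc (0.13, adjusted p 0.0203), Mt1 (0.20, 0.0200) and Hmox1 (0.14, 0.0481) were also higher. Each of these last 3 calls ended without COOH replicate 2 (0.0965, 0.172 and 0.310), which left 4. The Gclc call also ended without COOH replicate 1 (0.114) or LPS replicate 2 (0.109), that of Mt1 without LPS replicate 1 (0.343), and that of Hmox1 without COOH replicate 1 (0.1004), LPS replicate 1 (0.164) or LPS replicate 2 (0.245). The Mt1 call also ended with DESeq2 (0.0899) and with only the 6 libraries fitted (0.0505), and the Hmox1 call with DESeq2 (0.150), DESeq2 size factors (0.0660) and limma-voom (0.0523). Mt2 was called without LPS replicate 3 (0.0205) and with upper-quartile scaling (0.0394). Mt2 was also called without the low-count filter (0.00466) and with a transcript-length trend removed (log2 0.37, adjusted p 9.61e-06).

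Between the voltage dyes, Txnrd1 was lower in DiBASC2 than in Di-2-ANEPEQ by log2 -0.19 ± 0.04 (interval -0.26 to -0.11, adjusted p 0.000694), 1 of 10 members against 8.95% of all genes. Di-2-ANEPEQ libraries held 273, 264 and 257 CPM, all above the DiBASC2 libraries, and this call was kept with every one of the 6 libraries left out. Slc7a11 gave -0.21 (interval -0.35 to -0.06, adjusted p 0.0620) and was called without Di-2-ANEPEQ replicate 3 (0.0278). For Gclc the interval was -0.10 to 0.07, for Srxn1 -0.16 to 0.03, for Mt1 -0.07 to 0.21 and for Hmox1 -0.23 to 0.00. Mt2 gave log2 0.16 (interval 0.01 to 0.31, adjusted p 0.167) and was called without the low-count filter (0.00437), as Slc7a11 was (0.0242). Hmox1 was called with a transcript-length trend removed (-0.16, 0.0436).

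Lists of related genes give the setting of these values. Of 9 genes (NRF2 itself, its partners and inhibitors, and Nfe2l1), 6 were higher and 1 lower in LPS and likewise in (GT)6 SWCNT. In COOH SWCNT 5 were higher and 0 lower. All of these calls were kept with any library left out. Of all genes 13.8% were higher and 14.5% lower in LPS, and 9.90% and 10.5% in (GT)6 SWCNT. In COOH SWCNT the shares were 9.39% and 10.6%. Nfe2l1, a separate factor, was higher by log2 0.20 in LPS and 0.15 in (GT)6 SWCNT. Nfe2l2, NRF2 itself, rose from 193 ± 1.54 CPM in control to 392.2 ± 12.6 with LPS, 242 ± 4.98 with (GT)6 SWCNT and 223 ± 3.72 with COOH SWCNT (log2 1.02, 0.33 and 0.21). Maff, a small MAF partner, went from 27.7 ± 0.672 CPM to 208 ± 16.8, 75.5 ± 2.17 and 53.8 ± 2.21 (log2 2.91, 1.44 and 0.96). Mafk rose by log2 0.61, 0.63 and 0.36, Mafg by 0.28, 0.15 and 0.14, and Sqstm1, whose protein p62 binds KEAP1, by 0.96, 0.26 and 0.15. Keap1 fell in LPS and (GT)6 SWCNT (-0.36 and -0.27) and was not called in COOH SWCNT (-0.04). The median of the list was 0.28, 0.15 and 0.14.

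The same list went the other way in DiBASC2, where 4 were lower and 0 higher: Maff (log2 -0.84), Mafk (-0.22), Nfe2l2 (-0.21) and Mafg (-0.17). Of all genes 3.64% were lower and 1.82% higher. The Mafk call ended without control replicate 1 (adjusted p 0.104) and without DiBASC2 replicate 1 (0.0515) or 2 (0.0650). Against Di-2-ANEPEQ, 6 of the 9 were lower in DiBASC2 and 0 higher, Maff by -0.70 and Nfe2l2 by -0.24, beside 8.95% of all genes called. Of these 6 calls 5 were kept with any library left out. The Sqstm1 call ended in every such fit other than that without Di-2-ANEPEQ replicate 3 (adjusted p up to 0.237). It also ended with upper-quartile scaling (0.123). In Fura-2, AAV and Di-2-ANEPEQ 0 of the 9 were called by edgeR, beside 0.252%, 5.00% and 3.08% of all genes. In the same order 0, 2 and 3 had an unadjusted p under 0.05, a threshold at which the all-gene share was not computed. The exons of Keap1, Mafk and Sqstm1 overlap genes on the opposite strand and those of Mafg overlap Sirt7, so their counts are uncertain without the strand setting.

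Of 22 further NRF2-linked enzymes and carriers 19 were tested. Their counts in LPS, (GT)6 SWCNT and COOH SWCNT did not exceed the all-gene shares of 28.3%, 20.4% and 20.0%. In AAV and in Di-2-ANEPEQ 1 of the 19 was called, beside 5.00% and 3.08% of all genes. In (GT)6 SWCNT 0 were higher and 1 lower, the haem transporter gene Slc48a1 (127 ± 1.99 to 113 ± 3.07 CPM, log2 -0.17, adjusted p 0.000944). Without (GT)6 replicate 3 there were 3. In COOH SWCNT 0 were higher and 3 lower, and Prdx1, a peroxiredoxin (log2 -0.29), was the one left without control replicate 1 or COOH replicate 1. Prdx1 was also lower in AAV (-0.32), and 8.29% of its 50-base stretches recur in other genes. Its lower value in Di-2-ANEPEQ (-0.25, adjusted p 0.0198) was not called without control replicate 1 or 3 or without Di-2-ANEPEQ replicate 2 or 3 (up to 0.181). In LPS 1 was higher, Fth1, the ferritin heavy chain (log2 0.16), and 4 were lower, the call of Ugdh (-0.29) being kept in all 6 fits with a library left out. Without control replicate 2 or LPS replicate 2 the 5 became 3. In Fura-2 and DiBASC2 0 were called by edgeR, beside 0.252% and 5.47% of all genes. There 1 and 3 had an unadjusted p under 0.05, a threshold at which the all-gene share was not computed. Medians of the list lay between -0.04 and 0.03 in the 7 treatments.

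Among 15 other redox genes, LPS raised Nos2, the inducible nitric oxide synthase, from 1.72 ± 0.338 to 96.7 ± 12.1 CPM (log2 5.83). It also raised Sod2, mitochondrial superoxide dismutase (1.14), Cybb and Ncf1, parts of the phagocyte NADPH oxidase (1.003 and 0.55), and Prdx5 (0.50). Of these 15, 6 were higher and 3 lower in LPS, where 13.8% of all genes were higher and 14.5% lower. The 9 fell to 5 without LPS replicate 2. (GT)6 SWCNT had 2 higher, Cybb (0.26) and Sod2 (0.21), and 0 lower, which did not exceed the all-gene share of 20.4%. COOH SWCNT had 1 higher, Cybb (0.24), and 4 lower, of which Sod1 (-0.26, adjusted p 1.55e-05) was the one called with every library left out. The 5 stand beside 20.0% of all genes, and fell to 3 without control replicate 1 or COOH replicate 1 and to 2 without control replicate 3. Nos2 was not called with either nanotube (0.24 and 0.63).

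Metal-handling genes did not move as one. Of 11 tested (Mt3 and Mt4 fell below the count filter), 6 were higher and 2 lower in LPS, led by the metal importers Slc11a2 (log2 1.20) and Slc39a14 (0.69), with the zinc exporter Slc30a1 (-0.81) and the iron exporter Slc40a1 (-0.45) lower. Slc30a1, a target of MTF1 like Mt1 and Mt2, was not called in any nanotube, dye or AAV group, where its log2 values ran from -0.02 to 0.15. (GT)6 SWCNT had 4 higher and 0 lower: Slc11a2 (0.37), Slc39a10 (0.36), Slc30a4 (0.22) and Slc39a14 (0.17). The last call ended without control replicate 3 (adjusted p 0.0503). COOH SWCNT had 2 higher, of which Slc11a2 (0.20) was called with every library left out while the call of Slc30a4 (0.15) ended without any of the 6 other than COOH replicate 2 (adjusted p up to 0.196). DiBASC2 had 5 lower and 0 higher, of which Slc11a2 (-0.24) and Slc39a10 (-0.21) were kept in all 6 fits. Without control replicate 1 or 2 there were 2 lower, and without DiBASC2 replicate 1 or 3 there were 3. With upper-quartile scaling 2 were called. Beside these metal-handling counts, 13.8% of all genes were higher and 14.5% lower in LPS, and 9.90% and 10.5% in (GT)6 SWCNT. In DiBASC2 1.82% of all genes were higher and 3.64% lower. In COOH SWCNT 9.39% were higher and 10.6% lower, and the 2 calls did not exceed the all-gene share of 20.0%. Exons of Slc11a2, Slc30a1 and Slc30a4 overlap genes on the opposite strand, as do those of Prdx5, Ncf1 and Slc48a1 above, and 21.0% of the 50-base stretches of Sod2 recur elsewhere.

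Slc7a11 is also a target of ATF4, the factor that answers amino acid shortage, and 10 further genes of that response were listed. In (GT)6 SWCNT 7 were higher and 1 lower, and all 8 calls were kept with any library left out. Of all genes 9.90% were higher and 10.5% lower. Gdf15, a stress-induced secreted factor, rose from 3.99 ± 0.549 to 30.9 ± 4.74 CPM (log2 2.98), Chac1, which degrades glutathione, from 0.832 ± 0.128 to 4.25 ± 1.251 CPM (2.35) and Atf3 from 97.9 ± 2.69 to 253 ± 5.70 CPM (1.37). Sesn2 rose by 0.70, Trib3 by 0.60, Atf4 by 0.42 and Slc3a2, which encodes the heavy chain that pairs with xCT, by 0.17. Ddit4 fell by 0.58. The median of the list was 0.51 in (GT)6 SWCNT, beside an all-gene median of -0.02.

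In COOH SWCNT 4 of these 10 genes were higher and 0 lower: Gdf15 (1.53), Chac1 (1.28), Atf3 (0.76) and Sesn2 (0.46). Of all genes 9.39% were higher and 10.6% lower. Atf4 was 1 of 6 genes called between the nanotubes (0.40 higher in (GT)6 SWCNT, adjusted p 2.14e-08), against 21.4% of all genes. Slc7a11 was called in the same contrast. Whether ATF4 had a part in the Slc7a11 changes was not tested in any group. In LPS 5 were higher and 2 lower, against 13.8% and 14.5% of all genes. Gdf15 was at 4.43, Atf3 at 2.12 and Atf4 at 0.30, while Trib3, Asns and Sesn2 were not called. The Chac1 call in LPS (0.93, adjusted p 0.0172) ended without control replicate 1 (0.0513), control replicate 3 (0.0589) or LPS replicate 2 (0.103), that of Ddit3 (-0.53, 0.0242) without control replicate 2 (0.141) or LPS replicate 2 (0.188). The other 5 LPS calls of the list were kept with any 1 library left out. DiBASC2 had Atf4 (-0.26) and Atf3 (-0.24) lower with every library left out, 2 of its 4 calls, beside 5.47% of all genes. The other 2 were Gdf15, lower (-0.89, adjusted p 0.00726), and Ddit4, higher (0.40, 0.0215). That of Gdf15 ended without DiBASC2 replicate 1 (0.0511) and with limma-voom (0.0710). That of Ddit4 ended without control replicate 1 (0.103), control replicate 2 (0.125) or DiBASC2 replicate 2 (0.148). The call of Ddit4 in Fura-2 (0.48, adjusted p 0.0425) ended without any of the 6 libraries (up to 0.246), and that of Atf3 in Di-2-ANEPEQ (-0.17, 0.0377) ended without any of them other than Di-2-ANEPEQ replicate 1 (up to 0.213).

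**Figure D4:**
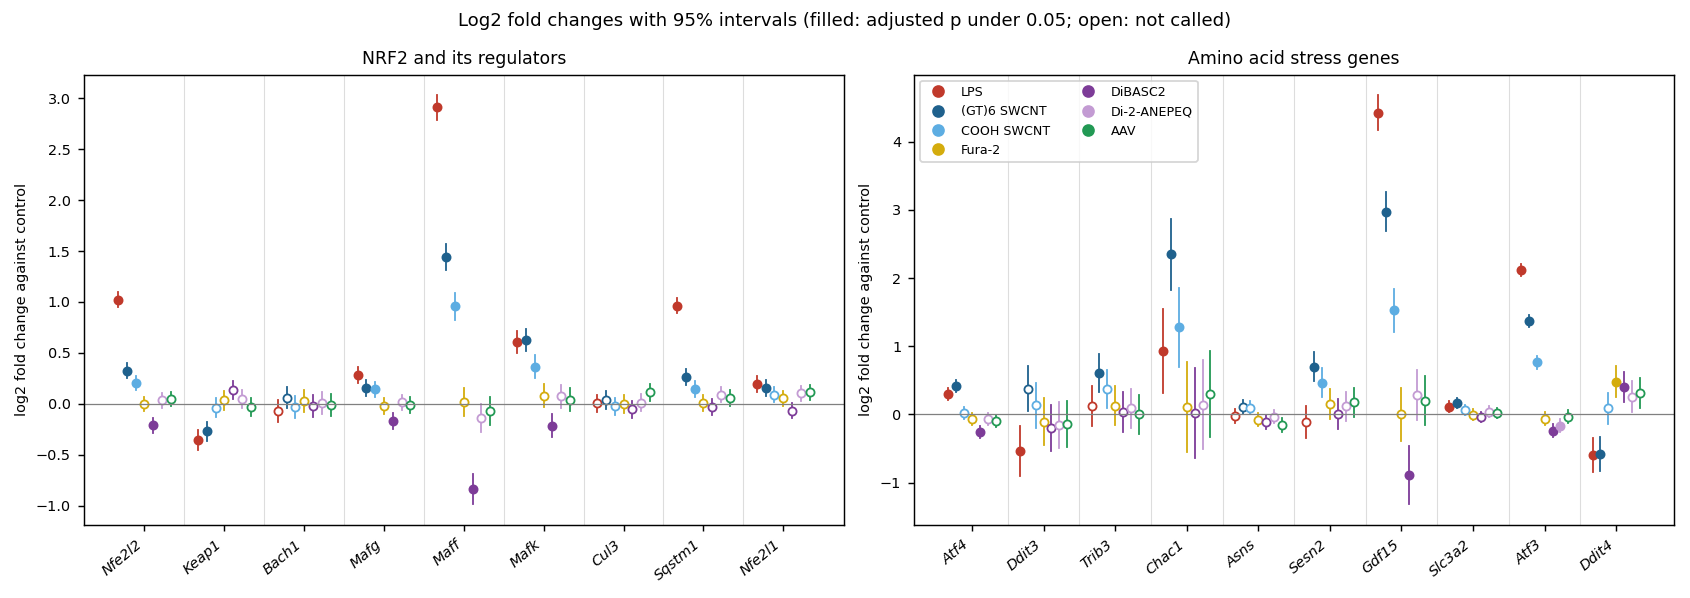
Log2 fold change against control (vertical axis) with 95% intervals for 9 NRF2 pathway regulators (left) and 10 amino acid stress genes (right), coloured by treatment. Filled points were called at an adjusted p under 0.05. Maff reaches 2.91 with LPS, 1.44 with (GT)6 SWCNT, 0.96 with COOH SWCNT and -0.84 with DiBASC2, and Gdf15 rises in LPS and both nanotubes.

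The genes most like each member were found by Pearson's r of mean log2 CPM over the 8 groups, among the 9493 genes whose CPM, averaged across all 24 libraries, reached 5. These are descriptions over 8 points, and where LPS stands apart they rest largely on that group. Each r is the highest of very many over few points, so a high value alone carries little weight. That holds most for Hmox1 and Gclm, whose group means spanned 1.14-fold and 1.10-fold, and for the barely detected Nqo1. Slc7a11 was listed with Bcl2a1d (r = 0.997) and Grap (0.996). Bcl2a1d passed the minimum through LPS (39.8 ± 4.08 CPM) and (GT)6 SWCNT (6.67 ± 0.941), its control mean being 4.55 ± 0.370 CPM and the other 5 groups lying below 5 CPM as well. Osgin1 was most like Tmem154 (0.997) and Pwwp2b (0.996). Gclc was most like Nck2 (0.995) and Rnf219 (0.984), Txnrd1 most like G3bp1 (0.990) and Slc39a14 (0.979), and Srxn1 most like Ifrd1 (0.989) and Gimap6 (0.987). Mt1 came nearest to Coro2a (0.973) and Bak1 (0.970), whereas Mt2 came nearest to Mt1 (0.950) and then Dhdh (0.944). Hmox1 came nearest to Atp6v1b2 (0.965) and Ide (0.956), Gclm to Zfp942 (0.951) and Pafah2 (0.945), and Nqo1 to Ubox5 (0.959) and Gpaa1 (0.939). Grap had 41.7 ± 2.24 CPM in control, 125 ± 5.95 in LPS and 54.4 ± 0.782 in (GT)6 SWCNT, the same order as Slc7a11.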

How the data were processed

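Poly-A RNA of 24 libraries in 8 groups of 3 was measured, and groups and replicate numbers come from the sample titles. The authors deposited unnormalised read counts in 1 table by Ensembl gene identifier, and all 24 columns were used. STAR 2.5.4b and build GRCm38.p6 are named in the submitters' processing notes. The counting tool, the strand setting and the annotation are not given in the sources used here. The DiBASC2 libraries carry varying spellings of the dye in the labels, and the titles were followed.

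Symbols and gene positions come from GENCODE M21 (GRCm38), which matched 54723 of 54838 identifiers. Counts were fitted in R 4.3.3 with edgeR 4.0.16 (filterByExpr, TMM, glmQLFit, glmQLFTest), with 1 mean per group, 16 residual degrees of freedom and 11 two-sided contrasts. The low-count filter kept 13116 genes, and Benjamini-Hochberg adjustment ran over all of them within a contrast. The SE is the log2 fold change over the square root of F. The script was tested on simulated counts.

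All 10 members are named whatever their values, with the called genes of 5 context lists and the 2 genes most like each member. The members and lists were chosen with earlier results of these data known. Alternatives were DESeq2 1.42.0, limma-voom (limma 3.58.1), other scaling factors, filters and sample sets, a replicate block, removal of a transcript-length trend, and each library left out. The same settings were applied to the counts of the context lists, a choice made after seeing the data.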

Additional observations from a re-analysis of the deposited data

How the results depend on the processing

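The 110 values of 10 genes in 11 contrasts were recomputed 1627 times. Of these, 1480 kept their sign and their side of the threshold, 30 lost a call, 49 gained one and 0 called values turned sign. The other 68, of 34 values, changed sign with no call in either fit (smallest adjusted p 0.501). Members called moved as follows. Without the low-count filter they were 3 in COOH SWCNT, 1 in Fura-2, 2 in DiBASC2 and 2 in AAV against control, 6 in (GT)6 SWCNT against LPS and 3 between the dyes. With only the 2 groups fitted they were 3 in COOH SWCNT, 1 in Fura-2, 2 in DiBASC2 and 2 in AAV. With the transcript-length trend removed they were 3 in COOH SWCNT, 2 in DiBASC2, 2 in AAV, 4 between the nanotubes and 2 between the dyes. In LPS against control the 5 became 7 with upper-quartile factors, which added Hmox1 and Gclm, and 6 without the filter, which added Hmox1. The added calls outside LPS were mostly of Mt1 and Mt2, in COOH SWCNT as in the dyes and AAV.

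With 1 library left out, members called ranged from 1 to 2 in COOH SWCNT, 0 to 1 in DiBASC2 and 0 to 2 in AAV against control, 1 to 2 between the nanotubes, 3 to 6 in (GT)6 SWCNT and 4 to 8 in COOH SWCNT against LPS, and 1 to 2 between the dyes. Same-numbered libraries did not detectably deviate together (correlations from -0.104 to 0.0696). Each deviation is taken from a mean of only 3 libraries, so this cannot settle whether the replicate numbers pair the samples. The replicate block gave 2 members between the dyes in place of 1, 6 in place of 7 in COOH SWCNT against LPS, where the Hmox1 call ended (adjusted p 0.0617), and the same counts in the other 9 contrasts. Of 825 recomputed list counts 104 moved by over 1.5 times. Genes called in all went from 33 to between 0 and 188 in Fura-2, from 404 to 814 in Di-2-ANEPEQ with only the 2 groups fitted, and to 120 without control replicate 1. In AAV 656 became 157 without control replicate 3. Other scaling moved the median of all genes by at most 0.0515 on the log2 scale. Depth limits Nqo1, which had 333 counts in all.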
